A study of Mus musculus with 8 samples.

Results

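Expression was examined for the ion channel genes of mouse lung fibroblasts that carry calcium, sodium or mixed cations: the voltage-gated calcium channel subunits (Cacna1, Cacna2d, Cacnb and Cacng), the voltage-gated sodium channel subunits (Scn), the TRP channels of the A, C, M and V subfamilies, the IP3 receptors (Itpr), the ryanodine receptors (Ryr), and the Orai and Piezo channels. The genes were taken by symbol, which gave 73 of the 25509 mouse genes in the deposited table. The symbol pattern also takes Trpc4ap, which encodes a TRPC4-associated protein and no channel, and it is described apart from the TRP channels. The CD249+ group was 4 libraries of lung fibroblasts that carry CD249 on their surface, and the CD249- group was 4 libraries of fibroblasts without it. Both fractions came from the same lungs of 4 wild-type C57Bl6/J mice, numbered 2, 7, 8 and 10, and no treatment, age or sex is given in the labels used here. The count columns and sample descriptions call the CD249+ libraries LIF and the CD249- libraries Ctrl, names that the labels do not explain, and the groups rest on the sample titles that go with those descriptions. Cells of the leukocyte (CD45), epithelial (CD326) and endothelial (CD31) lineages were gated out, and the cells left were split by CD249, the glutamyl aminopeptidase encoded by Enpep, with equal cell numbers kept from either side of the gate. A fibroblast here is therefore a cell that lacks 3 surface markers, which can also take in smooth muscle cells, pericytes and mesothelial cells.

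Voltage-gated calcium and sodium channels open when the membrane depolarises. An alpha subunit forms the pore, and in calcium channels alpha2delta and beta subunits bring it to the surface and tune its gating. TRP channels are cation channels opened by receptor signalling, lipids, heat, stretch or calcium itself. IP3 receptors and ryanodine receptors release calcium from the endoplasmic reticulum, Orai channels in the surface membrane refill that store when it runs low, and Piezo channels open when the membrane is stretched. In the lung, the contractile cells of vessels and airways depend on calcium entry through L-type channels, and Piezo1 and TRPV4 are known as mechanosensitive channels of endothelial cells.

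RNA was measured by sequencing single reads of 75 bp from amplified, oligo(dT)-primed cDNA, which does not mark strand. Totals were 28932788 to 30921169 counts per CD249+ library and 23011383 to 31906414 counts per CD249- library. Enpep had 240, 221, 175 and 329 CPM in the CD249+ libraries of mice 2, 7, 8 and 10, against 7.54, 5.99, 5.13 and 17.3 CPM in the CD249- libraries, which matches the labels of the sort. CPM is the count relative to the library total after TMM scaling, and the values of single libraries are given below in that order of mice. Marker genes of several cell types differed between the fractions as well. All 13 alveolar fibroblast markers tested, all 8 myofibroblast, all 10 smooth muscle and 9 of 10 pericyte markers tested were higher in CD249+ cells. The summed CPM of these lists ran from 7390 to 14130 (alveolar), 2113 to 2862 (myofibroblast), 1530 to 2721 (smooth muscle) and 748 to 1071 (pericyte) in CD249+ libraries. In CD249- libraries the same sums ran from 947 to 1394, 172 to 227, 463 to 1105 and 201 to 306. All 14 endothelial markers were lower in CD249+ cells, with sums of 4661 to 8752 CPM in CD249+ libraries, against 14840 to 19450 CPM in CD249- libraries. Pecam1, which encodes CD31, averaged 611 ± 239 CPM in CD249+ and 1667 ± 248 CPM in CD249- cells (SD, n = 4 each) although the gate was set against that protein. Ptprc, which encodes CD45, averaged 63.1 ± 22.8 CPM in CD249+ and 123 ± 58.0 CPM in CD249- cells, and Epcam, which encodes CD326, averaged 7.98 ± 4.97 CPM in CD249+ and 7.46 ± 1.62 CPM in CD249- cells. In bulk libraries such as these, fewer cells of a type and less RNA per cell cannot be told apart.

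CD249+ cells held more RNA of 8 of the 13 voltage-gated calcium channel genes tested, among them Cacna1d, Cacna1c and Cacna2d1, of the receptor-operated channels Trpc1 and Trpc6, and of the sodium channel Scn3a. They held less RNA of both Piezo channels, of Trpv4, of the IP3 receptors Itpr2 and Itpr3, and of the sodium channel genes Scn7a and Scn3b. Of the 73 genes, 40 had enough counts to test and 33 did not, 10 of them without a count in any library. In edgeR's quasi-likelihood test with the mouse as a block, 17 of the 40 were higher and 9 lower in CD249+ cells at a Benjamini-Hochberg adjusted p under 0.05, and 14 did not pass. Without the block 16 were higher and 8 lower, where 30.8% of all genes tested were called, 16.9% higher and 13.9% lower. The fractions differed widely as a whole, with 36.5% of all 14524 genes tested called, 19.3% higher and 17.1% lower. The median log2 fold change of CD249+ over CD249- was 0.92 over the 40 channel genes tested and -0.02 over all genes tested. Of the 40, 29 reached the count filter in all 8 libraries, 7 passed it only through the CD249+ libraries and 0 only through the CD249- libraries, so the counts and the median over those tested lean towards genes high in CD249+ cells and are a description only. The 4 values of CD249+ libraries lay clear of the 4 values of CD249- libraries for 26 of the 40, 18 of them higher and 8 lower, against 33.6% of all genes tested, 17.8% higher and 15.8% lower. Levels per kilobase of exon ranked differently from the changes. Scn7a stood highest of the channel genes, at 46.0 CPM per kilobase in CD249+ and 69.6 in CD249- cells, and Orai3 (25.5 in CD249+ and 20.8 in CD249- cells), Orai1 (18.9 in CD249+ and 27.0 in CD249- cells) and Scn3b (14.7 in CD249+ and 39.0 in CD249- cells) came next, while Cacna1d reached 3.96 in CD249+ and 0.203 in CD249- cells. Fold changes below are log2 of CD249+ over CD249- from that fit, with its standard error, and each adjusted p is over all genes tested.

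**Figure D1:**
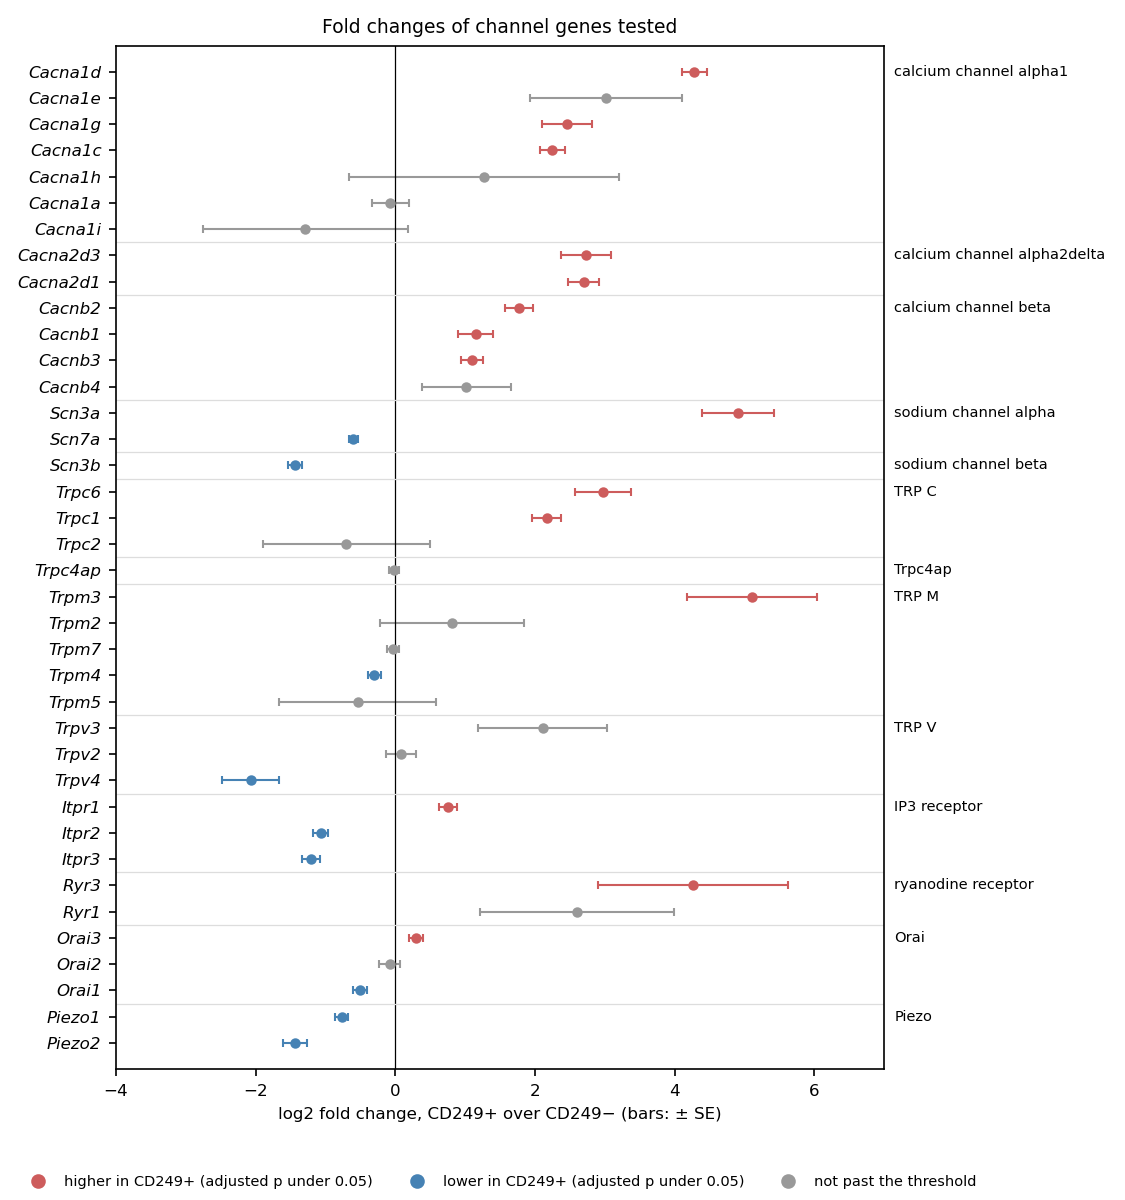
Log2 fold change of CD249+ over CD249- cells (points, with bars of ± 1 standard error) for 38 of the 40 channel genes tested, ordered by family. Red points are genes higher and blue points genes lower in CD249+ cells at an adjusted p under 0.05, and grey points did not pass. All called calcium channel subunits, Trpc1 and Trpc6 lie to the right of 0, both Piezo genes and Trpv4 lie to the left, and the IP3 receptors, Orai and sodium channels fall on both sides.

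Of the 7 pore-forming alpha1 genes tested, 3 were higher in CD249+ cells and 4 did not pass, where 19.3% of all genes tested were higher. Cacna1d, the pore of an L-type channel that opens at fairly negative potentials (ENSMUSG00000015968.16, chromosome 14, 30039939 to 30491455, minus strand, GRCm38), had 53.0, 54.8, 39.2 and 53.0 CPM in CD249+ libraries, against 2.89, 2.21, 2.79 and 2.37 CPM in CD249- libraries. The lowest CD249+ library was thus far above the highest CD249- library, and the fitted difference was 19.4-fold (log2 fold change 4.28, SE 0.18, adjusted p = 1.44e-06). Cacna1c, the main L-type pore of smooth muscle and heart (ENSMUSG00000051331.14, chromosome 6, 118587240 to 119196418, minus strand), had 32.8, 33.2, 39.5 and 27.9 CPM in CD249+ libraries, against 6.77, 8.37, 5.71 and 7.20 CPM in CD249- libraries. Its groups did not overlap either (log2 fold change 2.25, SE 0.18, adjusted p = 3.23e-05). Cacna1g, the pore of a T-type channel that opens near rest, had 6.72, 16.1, 15.5 and 7.64 CPM in CD249+ libraries, against 1.26, 1.89, 1.96 and 2.94 CPM in CD249- libraries. Mice 7 and 8 had the higher values within the CD249+ libraries, and every CD249+ value exceeded every CD249- value (log2 fold change 2.46, SE 0.36, adjusted p = 0.000861). The fold change of Cacna1g was 3.07 in mice 7 and 8 alone (adjusted p = 0.000243). Cacna1a, the pore of the P/Q-type channel of nerve endings, averaged 6.55 ± 1.28 CPM in CD249+ and 6.88 ± 1.38 CPM in CD249- cells (SD, n = 4 each), with overlapping groups and a log2 fold change of -0.07 (95% interval -0.67 to 0.53). Of the other alpha1 genes tested, Cacna1e, an R-type pore, had a log2 fold change of 3.02 that missed the threshold (SE 1.09, adjusted p = 0.0632). It reached the count filter in 4 CD249+ but only 2 CD249- libraries, so it was tested through the group where it is high. Its groups did not overlap, with CD249- values of 0.531, 0.806, 0 and 0.120 CPM, which leaves the size of its difference poorly fixed. Cacna1e passed under DESeq2, limma-voom and the filter at 1 CPM, but not with any 1 mouse left out (adjusted p from 0.0761 to 0.153). Cacna1h and Cacna1i, T-type pores, lay at or below 1.68 CPM on average in either group and did not pass. Cacna1f and Cacna1s were too low to test, and Cacna1b had no count.

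Set on one scale of CPM per kilobase of merged exon length, the alpha1 genes together reached 7.55 ± 0.838 in CD249+ and 1.48 ± 0.173 in CD249- cells (SD, n = 4 each). Cacna1d made up 52.8% ± 8.72 of that sum in CD249+ and 14.1% ± 3.36 in CD249- cells. Cacna1a made up 7.57% ± 1.04 of the sum in CD249+ and 40.5% ± 3.6 in CD249- cells. Cacna1c held 21.0% ± 3.47 in CD249+ and 22.4% ± 1.56 in CD249- cells. By this measure the leading alpha1 gene was Cacna1d in each CD249+ library and Cacna1a in each CD249- library, and these shares were described without a test. The lead of Cacna1a over Cacna1c depended on the merged exon lengths, 11.4 kb for Cacna1a and 21.2 kb for Cacna1c, which need not be those of the transcripts used. In CPM not divided by length, Cacna1c averaged 7.01 and Cacna1a 6.88 in CD249- cells, and Cacna1c was the lower of them only in mouse 10.

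Of the auxiliary subunits of the same channels, both alpha2delta genes tested and 3 of the 4 beta genes tested were higher in CD249+ cells. Cacna2d1, the alpha2delta subunit that gabapentin binds (ENSMUSG00000040118.15, chromosome 5, 15934691 to 16374511, plus strand), had 23.9, 34.1, 23.6 and 29.6 CPM in CD249+ libraries, against 2.89, 3.71, 4.55 and 6.48 CPM in CD249- libraries. Its groups lay well apart (log2 fold change 2.70, SE 0.22, adjusted p = 3.44e-05). Cacna2d3, a further alpha2delta gene, had 9.68, 9.42, 16.5 and 7.43 CPM in CD249+ libraries, against 1.66, 1.54, 1.17 and 1.83 CPM in CD249- libraries, again without overlap (log2 fold change 2.73, SE 0.36, adjusted p = 0.000508). Among the beta subunits, which sit on the inner face of the pore, Cacnb2 had 28.1, 22.5, 28.3 and 19.1 CPM in CD249+ libraries, against 7.41, 5.08, 7.59 and 8.85 CPM in CD249- libraries (log2 fold change 1.77, SE 0.20, adjusted p = 0.000237). Cacnb3 had 24.9, 30.2, 34.8 and 26.0 CPM in CD249+ libraries, against 13.4, 10.3, 16.5 and 13.9 CPM in CD249- libraries (log2 fold change 1.10, SE 0.16, adjusted p = 0.000785). Cacnb1, the beta subunit of skeletal muscle channels, had 8.70, 10.1, 9.34 and 8.63 CPM in CD249+ libraries, against 3.95, 5.32, 3.21 and 4.26 CPM in CD249- libraries (log2 fold change 1.15, SE 0.25, adjusted p = 0.00728). All 3 were higher in CD249+ cells in every mouse and did not overlap between the groups. Cacnb4 had a log2 fold change of 1.02 with overlapping groups and did not pass (adjusted p = 0.254). The alpha2delta genes summed to 3.51 ± 0.433 CPM per kilobase in CD249+ and 0.594 ± 0.164 in CD249- cells, and the beta genes to 11.4 ± 1.32 in CD249+ and 5.02 ± 0.473 in CD249- cells. None of the 8 gamma subunit genes had enough counts to test, and 4 of them had none. Together, 8 of 13 voltage-gated calcium channel genes tested were higher in CD249+ cells, 0 were lower and 5 did not pass. Of all genes tested, 19.3% were higher and 17.1% lower. The median log2 fold change of the 13 was 1.77. The alveolar fibroblast, myofibroblast, smooth muscle and pericyte marker sums given above moved the same way as the 8 genes, and their part in the result was not tested.

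As examples of the 8 calcium channel genes that rose, the 250 bases before the annotated start are shown for Cacna1d and Cacna2d1 from RefSeq promoters on GRCm38.p6, in which 57 of the 73 genes had an entry. Capitals mark GGGCGG on either strand, the GC box that Sp1-family factors bind. Cacna1d has a pair of annotated starts, shown because their windows differ.
Cacna1d, start inside the gene (chr14:30353487-30353736, minus strand): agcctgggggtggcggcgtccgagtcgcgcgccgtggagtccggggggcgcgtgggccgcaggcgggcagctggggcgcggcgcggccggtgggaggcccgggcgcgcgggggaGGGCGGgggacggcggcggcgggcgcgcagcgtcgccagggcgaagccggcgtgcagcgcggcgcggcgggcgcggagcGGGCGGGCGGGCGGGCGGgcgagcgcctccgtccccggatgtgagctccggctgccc
Cacna1d, start near the outer end of the gene (chr14:30491157-30491406, minus strand): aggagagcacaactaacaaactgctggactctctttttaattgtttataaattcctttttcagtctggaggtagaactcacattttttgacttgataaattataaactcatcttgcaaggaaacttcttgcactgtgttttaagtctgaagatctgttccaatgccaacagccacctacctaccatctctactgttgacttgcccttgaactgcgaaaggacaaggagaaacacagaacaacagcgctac
Cacna2d1 (chr5:15934441-15934690, plus strand): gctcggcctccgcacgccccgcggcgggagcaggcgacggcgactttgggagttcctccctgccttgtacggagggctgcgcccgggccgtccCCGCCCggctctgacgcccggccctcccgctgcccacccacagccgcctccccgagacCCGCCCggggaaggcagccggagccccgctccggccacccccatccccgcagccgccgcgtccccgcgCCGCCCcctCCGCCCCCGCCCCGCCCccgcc
The first Cacna1d window was 86.4% G or C and held 5 GGGCGG matches counted with overlaps, and the second was 39.6% G or C and held 0. The Cacna2d1 window was 82.4% G or C and held 6 such matches. GGGCGG was found in 9 of 18 windows of the channel genes that were higher, in 6 of 6 windows of those that were lower, and in 32.7% of all 32851 promoter windows in the table. The 18 windows came from 11 of the 17 higher genes, some with several starts, and the 6 windows from 6 of the 9 lower genes. These window shares are therefore not shares of genes. All of the 11 higher genes but Trpc6 and Trpm3 had a GGGCGG match in at least 1 window. The median G or C content was 61% in windows of higher genes, 72% in those of lower genes and 52.4% in all windows. E-box matches (CANNTG) were found in 72.2% of the windows of higher genes, 66.7% of those of lower genes and 66.2% of all windows, and TATAAA in 5.56% of those of higher genes, 16.7% of those of lower genes and 12.4% of all. A match of letters is a description and shows no binding, and the counts do not say which start the cells used.

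**Figure D2:**
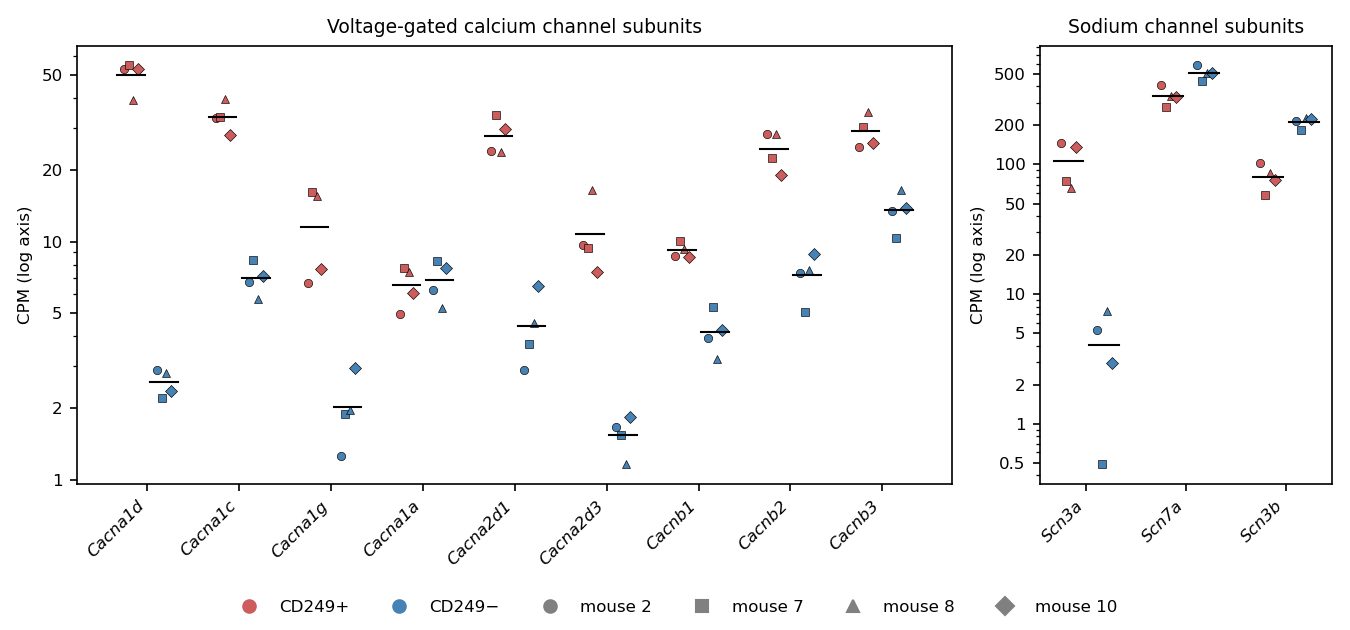
CPM on a log axis of voltage-gated calcium (left) and sodium channel (right) genes in each library, with CD249+ in red left of CD249- in blue, 1 marker shape per mouse and a black line at each group mean of 4 libraries. The red points of all calcium channel genes plotted but Cacna1a lie above their blue points, and Scn7a and Scn3b lie lower in red than in blue.

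The sodium channel genes split in opposite directions. Scn3a, a pore-forming subunit best known from developing neurons (ENSMUSG00000057182.14, chromosome 2, 65457118 to 65567627, minus strand), had 147, 75.2, 65.6 and 137 CPM in CD249+ libraries, against 5.28, 0.490, 7.42 and 2.94 CPM in CD249- libraries. It was 8.84 to 153 times as high in the CD249+ library as in the CD249- library of the same mouse (log2 fold change 4.91, SE 0.51, adjusted p = 0.000137). Without mouse 8 the log2 fold change was 5.57. Scn7a, an atypical alpha subunit that responds to sodium concentration in salt-sensing glia (ENSMUSG00000034810.7, chromosome 2, 66673425 to 66784914, minus strand), had 407, 276, 338 and 330 CPM in CD249+ libraries, against 582, 438, 512 and 512 CPM in CD249- libraries. The CD249+ library was lower in each of the 4 mice, by a fitted 1.52-fold (log2 fold change -0.60, SE 0.07, adjusted p = 0.000200). Of the beta subunits, which shape gating and bind neighbouring cells, Scn3b had 102, 58.6, 85.6 and 75.6 CPM in CD249+ libraries, against 218, 184, 228 and 223 CPM in CD249- libraries. Its groups did not overlap (log2 fold change -1.43, SE 0.10, adjusted p = 1.94e-05). Per kilobase, Scn7a made up 84.3% ± 4.25 of the summed alpha subunit level in CD249+ and 99.4% ± 0.177 in CD249- cells, and Scn3a made up 15.2% ± 4.12 in CD249+ and 0.445% ± 0.329 in CD249- cells. The whole alpha subunit sum was 54.9 ± 9.98 CPM per kilobase in CD249+ and 70.0 ± 8.07 in CD249- cells. The nerve and Schwann cell marker sum ran from 17.3 to 25.7 CPM in CD249+ and 21.5 to 43.8 CPM in CD249- libraries, with Elavl4 at 0 throughout. Of its 5 markers tested, 0 were higher and 1 lower. The neuroendocrine sum ran from 12.6 to 17.9 CPM in CD249+ and 3.21 to 8.02 CPM in CD249- libraries, with Resp18 at 0. Of its 7 markers only 2 were tested, with 1 higher and 1 not called. The median log2 fold change of those 2 genes was -0.67, while the sum was higher in CD249+ libraries without overlap. With only 2 genes tested, neither value describes the list as a whole. The part of these cell types in the sodium channel values was not tested. Of the 13 sodium channel genes, Scn1a, Scn9a and Scn10a had no count in any library and 6 others were too low to test.

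The TRPC genes encode cation channels opened downstream of phospholipase C, and Trpc1 and Trpc6 were higher in CD249+ cells. Trpc1 (ENSMUSG00000032839.13, chromosome 9, 95705082 to 95750375, minus strand) had 21.0, 22.2, 21.1 and 25.3 CPM in CD249+ libraries, against 4.32, 4.94, 3.34 and 8.22 CPM in CD249- libraries. Its CD249+ values lay in a narrow band above all CD249- values (log2 fold change 2.17, SE 0.21, adjusted p = 8.43e-05). Trpc6, a diacylglycerol-gated channel of smooth muscle (ENSMUSG00000031997.8, chromosome 9, 8544142 to 8680741, plus strand), had 17.4, 14.2, 14.1 and 8.22 CPM in CD249+ libraries, against 0.863, 2.84, 1.42 and 1.86 CPM in CD249- libraries. These groups did not overlap (log2 fold change 2.98, SE 0.40, adjusted p = 0.000573). Trpc2, a pheromone-sensing channel in rodents, shares 97.5% of its exon bases with a read-through gene and its value is uncertain, and it did not pass (adjusted p = 0.690). Trpc4ap, the associated protein, had 213, 197, 207 and 215 CPM in CD249+ libraries, against 218, 200, 212 and 211 CPM in CD249- libraries, with a log2 fold change of -0.02 (95% interval -0.17 to 0.13). As for the calcium channels, the alveolar fibroblast, myofibroblast, smooth muscle and pericyte marker sums were also higher in CD249+ cells. The part of any of these cell types in the Trpc1 and Trpc6 values was not tested.

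Of the 3 TRPV genes tested, 1 was lower in CD249+ cells and 0 were higher, against 17.1% lower and 19.3% higher of all genes tested. Trpv4, a channel opened by stretch, warmth and lipid mediators (ENSMUSG00000014158.11, chromosome 5, 114622152 to 114658421, minus strand), had 15.7, 2.34, 5.59 and 7.09 CPM in CD249+ libraries, against 26.1, 29.2, 27.2 and 24.8 CPM in CD249- libraries. The CD249- values were close together and the CD249+ values spread widely below them (log2 fold change -2.07, SE 0.41, adjusted p = 0.00474). The size of the fall depended on the mice used, at -2.90 for mice 7 and 8 (adjusted p = 0.000265) and -1.26 for mice 2 and 10 (adjusted p = 0.0236). Trpv2 had 31.2, 16.9, 19.0 and 15.6 CPM in CD249+ libraries, against 16.9, 19.8, 23.4 and 15.7 CPM in CD249- libraries. Its groups overlapped, with mouse 2 alone clearly higher in CD249+ cells (log2 fold change 0.08, 95% interval -0.40 to 0.57, adjusted p = 0.792). Trpv3, known from skin, did not pass (log2 fold change 2.11, adjusted p = 0.111) except under DESeq2 (adjusted p = 0.0440). Trpv4 made up 24.4% ± 9.17 of the summed TRPV level per kilobase in CD249+ and 60.6% ± 3.11 in CD249- cells, and Trpv2 67.5% ± 11.3 in CD249+ and 38.6% ± 3.51 in CD249- cells. The TRPV sum was 7.02 ± 2.92 CPM per kilobase in CD249+ and 10.9 ± 1.06 in CD249- cells.

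The promoter windows of Trpc6 and Trpv4 are shown as those of the TRP genes that moved furthest in either direction among those with an entry whose higher group averaged 10 CPM or more. Capitals mark GGGCGG in Trpv4 and a CArG box, the site that serum response factor binds in smooth muscle genes, in Trpc6.
Trpc6 (chr9:8543892-8544141, plus strand): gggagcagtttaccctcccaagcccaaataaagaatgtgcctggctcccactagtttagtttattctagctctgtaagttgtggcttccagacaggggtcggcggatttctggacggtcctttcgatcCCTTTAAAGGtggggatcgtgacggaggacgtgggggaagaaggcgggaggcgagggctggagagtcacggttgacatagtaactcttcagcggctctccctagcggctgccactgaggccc
Trpv4 (chr5:114658422-114658671, minus strand): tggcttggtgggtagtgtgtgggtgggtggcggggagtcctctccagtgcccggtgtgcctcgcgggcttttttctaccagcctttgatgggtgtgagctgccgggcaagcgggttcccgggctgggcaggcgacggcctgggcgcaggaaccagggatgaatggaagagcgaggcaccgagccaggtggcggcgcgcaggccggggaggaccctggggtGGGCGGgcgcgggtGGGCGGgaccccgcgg
The Trpc6 window was 56.4% G or C and held 0 GGGCGG and 1 CArG box. A CArG box was found in 1.47% of all 32851 windows and in 2 of the 71 windows of the channel genes. The other of these 2 windows was that of Trpv1, which was too low to test. The Trpv4 window was 72.0% G or C and held 2 GGGCGG matches.

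Of the 5 TRPM genes tested, 1 was higher and 1 lower in CD249+ cells, and 3 did not pass. These counts are near the shares over all genes tested, 19.3% higher and 17.1% lower. Of the 5, 3 passed the count filter only through the CD249+ libraries, among them Trpm3, the gene called higher. Trpm7, a channel fused to a kinase that carries magnesium and calcium, had 55.1, 62.1, 59.1 and 57.7 CPM in CD249+ libraries, against 62.6, 59.1, 53.9 and 63.1 CPM in CD249- libraries. These values overlapped throughout, and the 95% interval of the log2 fold change ran from -0.24 to 0.19 around -0.03. Trpm4, a sodium-passing channel opened by internal calcium, had 73.1, 54.6, 63.4 and 57.9 CPM in CD249+ libraries, against 80.3, 78.6, 72.0 and 73.5 CPM in CD249- libraries. It was lower in CD249+ cells in each mouse although the groups overlapped (log2 fold change -0.30, SE 0.09, adjusted p = 0.0388). That call was lost without mouse 2, 7, 8 or 10 (adjusted p = 0.0576, 0.151, 0.0658 and 0.114) and without the mouse as a block (adjusted p = 0.0701). Trpm3, a channel opened by heat and pregnenolone sulfate, had 3.16, 2.12, 0.849 and 2.43 CPM in CD249+ libraries, against 0.0996, 0.14, 0 and 0.0300 CPM in CD249- libraries. It reached the count filter in CD249+ libraries only, and the CD249- values lay near or below the level of 3 counts in a library, 0.0940 to 0.130 CPM, so the size of the rise is poorly fixed (log2 fold change 5.11, SE 0.93, adjusted p = 0.00308, and 5.70 without mouse 7). Trpm2, opened by ADP-ribose, and Trpm5, known from taste cells, did not pass. The TRPM genes summed to 11.5 ± 0.371 CPM per kilobase in CD249+ and 12.6 ± 0.598 in CD249- cells.

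The IP3 receptors changed in opposite directions within 1 family. Itpr1 (ENSMUSG00000030102.10, chromosome 6, 108213096 to 108551109, plus strand) had 81.0, 85.6, 75.3 and 88.9 CPM in CD249+ libraries, against 53.4, 45.4, 56.7 and 40.8 CPM in CD249- libraries. All CD249+ values were higher (log2 fold change 0.76, SE 0.13, adjusted p = 0.00176). Itpr2 (ENSMUSG00000030287.15, chromosome 6, 146108299 to 146502223, minus strand) had 82.4, 57.8, 71.0 and 56.1 CPM in CD249+ libraries, against 136, 145, 163 and 114 CPM in CD249- libraries. All CD249+ values were lower (log2 fold change -1.07, SE 0.11, adjusted p = 0.000114). Itpr3 (ENSMUSG00000042644.8, chromosome 17, 27057304 to 27122223, plus strand) had 24.0, 15.4, 26.1 and 19.6 CPM in CD249+ libraries, against 63.7, 42.8, 48.5 and 40.7 CPM in CD249- libraries. It too was lower without overlap (log2 fold change -1.21, SE 0.13, adjusted p = 0.000181). Per kilobase, Itpr1 made up 40.0% ± 5.91 of the IP3 receptor sum in CD249+ and 15.3% ± 0.551 in CD249- cells. Itpr2 made up 39.4% ± 3.83 in CD249+ and 53.8% ± 4.36 in CD249- cells, and Itpr3 20.6% ± 3.23 in CD249+ and 30.9% ± 4.33 in CD249- cells. The sum itself was 11.4 ± 1.05 CPM per kilobase in CD249+ and 17.5 ± 2.34 in CD249- cells.

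Ryanodine receptors, the release channels of muscle and nerve, were scarce. Ryr3 had 1.55, 1.31, 0.849 and 3.49 CPM in CD249+ libraries, against 0.133, 0.455, 0 and 0 CPM in CD249- libraries. It reached the count filter in all 4 CD249+ libraries but in only 1 CD249- library, so that it was tested through the group where it is high and the size of its difference is poorly fixed. The fitted log2 fold change was 4.26 (SE 1.36, adjusted p = 0.0406), and the call was lost without mouse 2, 8 or 10 (adjusted p = 0.0907, 0.105 and 0.114). The log2 fold change of Ryr3 was 5.66 without mouse 7, 3.26 without mouse 10 and 3.57 without the mouse as a block (adjusted p = 0.0426). The CD249+ library of mouse 10, which had the highest Ryr3 value, also had an epithelial marker sum of 10450 CPM, against 630 to 1216 CPM in the other CD249+ libraries, and its part in the Ryr3 value was not tested. Its exons share 4.83% of their bases with Aven on the other strand, which did not pass (log2 fold change -0.05, adjusted p = 0.839). Ryr1 did not pass (log2 fold change 2.60, adjusted p = 0.185) except under DESeq2 (adjusted p = 0.0406). Like Ryr3, Ryr1 reached the count filter in 4 CD249+ libraries but in only 1 CD249- library. It was thus tested through the group where it is high, and the DESeq2 call is a description only. Ryr1 was higher in CD249+ cells in 3 mice and lower in mouse 8 (0.389 against 0.959 CPM). Ryr2 was too low to test.

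The Orai channels, which form the pore of store-operated calcium entry, differed by 1.42-fold or less. Orai1 (ENSMUSG00000049686.14, chromosome 5, 123015074 to 123030456, plus strand) had 47.9, 39.3, 39.9 and 46.4 CPM in CD249+ libraries, against 71.9, 63.8, 50.5 and 61.4 CPM in CD249- libraries. The CD249+ values were all lower (log2 fold change -0.51, SE 0.10, adjusted p = 0.00412). Orai2 had 19.3, 25.4, 27.9 and 29.7 CPM in CD249+ libraries, against 25.7, 30.7, 23.5 and 27.6 CPM in CD249- libraries. These overlapped, with a log2 fold change of -0.08 (95% interval -0.42 to 0.25). Orai3 (chromosome 7, 127769815 to 127775150, plus strand) had 49.3, 61.7, 54.1 and 53.6 CPM in CD249+ libraries, against 47.1, 48.1, 40.2 and 43.0 CPM in CD249- libraries. The lowest CD249+ value stood just above the highest CD249- value, and the gene was called higher by a narrow margin (log2 fold change 0.29, SE 0.10, adjusted p = 0.0483). That call was lost without mouse 7, 8 or 10 (adjusted p = 0.146, 0.161 and 0.128), without the mouse as a block (adjusted p = 0.0607), without TMM scaling (adjusted p = 0.151) and without the count filter (adjusted p = 0.0599). Per kilobase, Orai3 made up 52.5% ± 3.88 of the Orai sum in CD249+ and 40.0% ± 1.68 in CD249- cells, and Orai1 made up 38.9% ± 4.41 in CD249+ and 51.5% ± 2.25 in CD249- cells. The Orai sum was 48.6 ± 1.72 CPM per kilobase in CD249+ and 52.2 ± 5.67 in CD249- cells.

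**Figure D3:**
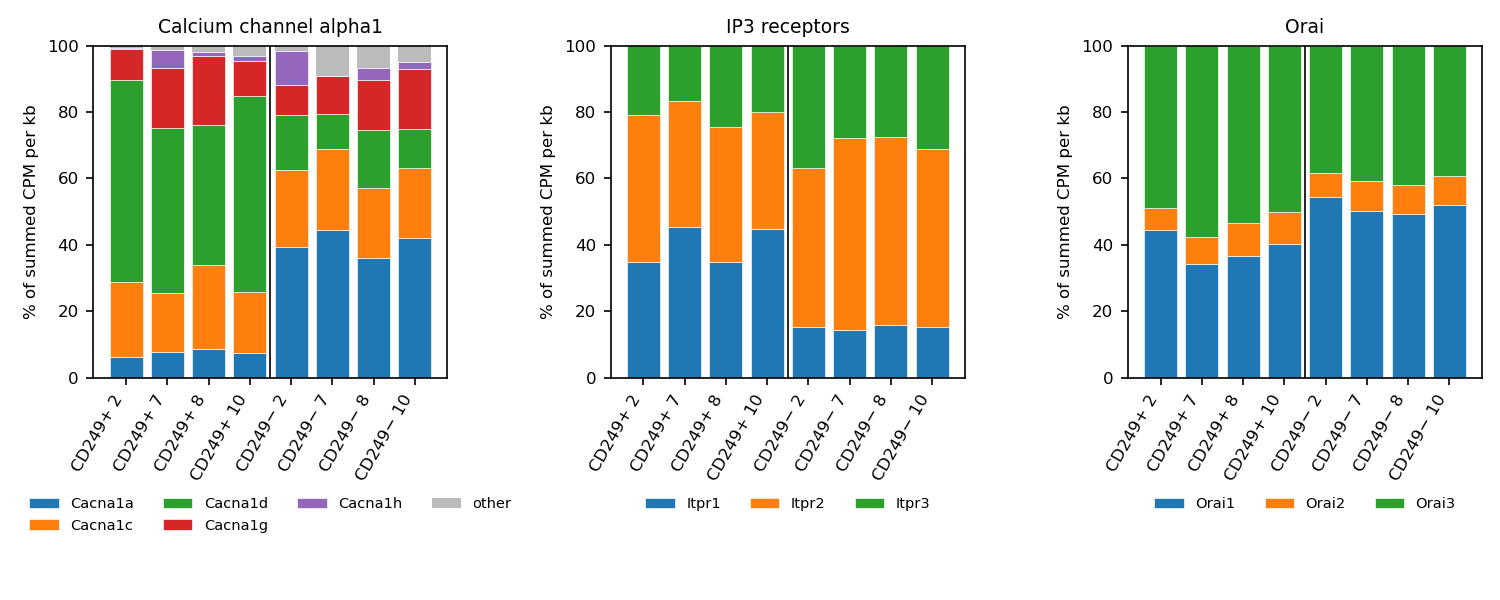
Share of the summed CPM per kilobase of 3 families taken by each member in each library, in percent, with the 4 CD249+ libraries left of the black line and the 4 CD249- libraries right of it. Genes never above 5% are pooled as other. Cacna1d leads the alpha1 genes in CD249+ libraries and Cacna1a in CD249- libraries, the share of Itpr1 is higher in CD249+ libraries, and Orai3 exceeds Orai1 in CD249+ libraries only.

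Both Piezo genes were lower in CD249+ cells. Piezo1, the stretch-gated channel of vessel walls and many other tissues (ENSMUSG00000014444.16, chromosome 8, 122481698 to 122551329, minus strand), had 121, 92.9, 108 and 101 CPM in CD249+ libraries, against 184, 142, 216 and 185 CPM in CD249- libraries. Piezo1 was lower in CD249+ cells in each of the 4 mice, by a fitted 1.71-fold, and the groups did not overlap (log2 fold change -0.77, SE 0.09, adjusted p = 0.000239). The exons of Piezo1 share 24.6% of their bases with Ctu2 on the other strand, and the reads cannot be told apart there. Ctu2 averaged 28.9 ± 3.55 CPM in CD249+ and 35.9 ± 2.71 CPM in CD249- cells and did not pass (log2 fold change -0.32, adjusted p = 0.0805). Piezo2, the stretch-gated channel of touch neurons (ENSMUSG00000041482.16), had 60.2, 25.6, 34.1 and 22.3 CPM in CD249+ libraries, against 108, 94.8, 85.8 and 72.9 CPM in CD249- libraries. Its CD249+ values were all lower, from 0.270 to 0.559 times the CD249- value of the same mouse (log2 fold change -1.44, SE 0.17, adjusted p = 0.000244). Per kilobase, Piezo1 stood above Piezo2 in every library, with a mean of 10.7 CPM per kilobase in CD249+ and 18.3 in CD249- cells, against 2.07 in CD249+ and 5.26 in CD249- cells for Piezo2. Their sum was 12.7 ± 2.13 in CD249+ and 23.6 ± 2.95 in CD249- cells.

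The endothelial markers moved with the channel genes that were lower in CD249+ cells. Of the 9 such genes, all but Itpr3 had their highest CD249+ value in mouse 2, whose CD249+ library also had the highest endothelial sum of the CD249+ libraries, 8752 CPM against 4661 to 5163 CPM in those of the other mice. Among the CD249- libraries mouse 2 likewise had the highest endothelial sum, 19450 CPM against 14840 to 15780 CPM. There Itpr3, Orai1, Piezo2, Scn7a and Trpm4 were highest in mouse 2, but Piezo1, Itpr2 and Scn3b were highest in mouse 8 and Trpv4 in mouse 7. A highest CD249+ value in mouse 2 was not limited to the lower genes. Scn3a, Trpc6 and Trpm3, which were higher in CD249+ cells, and the uncalled Trpv2 and Trpv3 had it too. The other channel genes called higher had their highest CD249+ value in another mouse. All 14 endothelial markers were detected in these libraries and fell, with a median log2 fold change of -1.51. The part of endothelial RNA in the lower Piezo1, Piezo2, Trpv4, Itpr2, Itpr3, Orai1, Trpm4, Scn3b and Scn7a was not tested. Without mouse 2, Itpr3 and Orai1 lay nearer 0, at log2 fold changes of -1.12 and -0.46. The others lay further from 0 than with all mice, at -2.52 (Trpv4), -1.62 (Piezo2), -1.52 (Scn3b), -1.16 (Itpr2), -0.81 (Piezo1), -0.61 (Scn7a) and -0.33 (Trpm4).

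**Figure D4:**
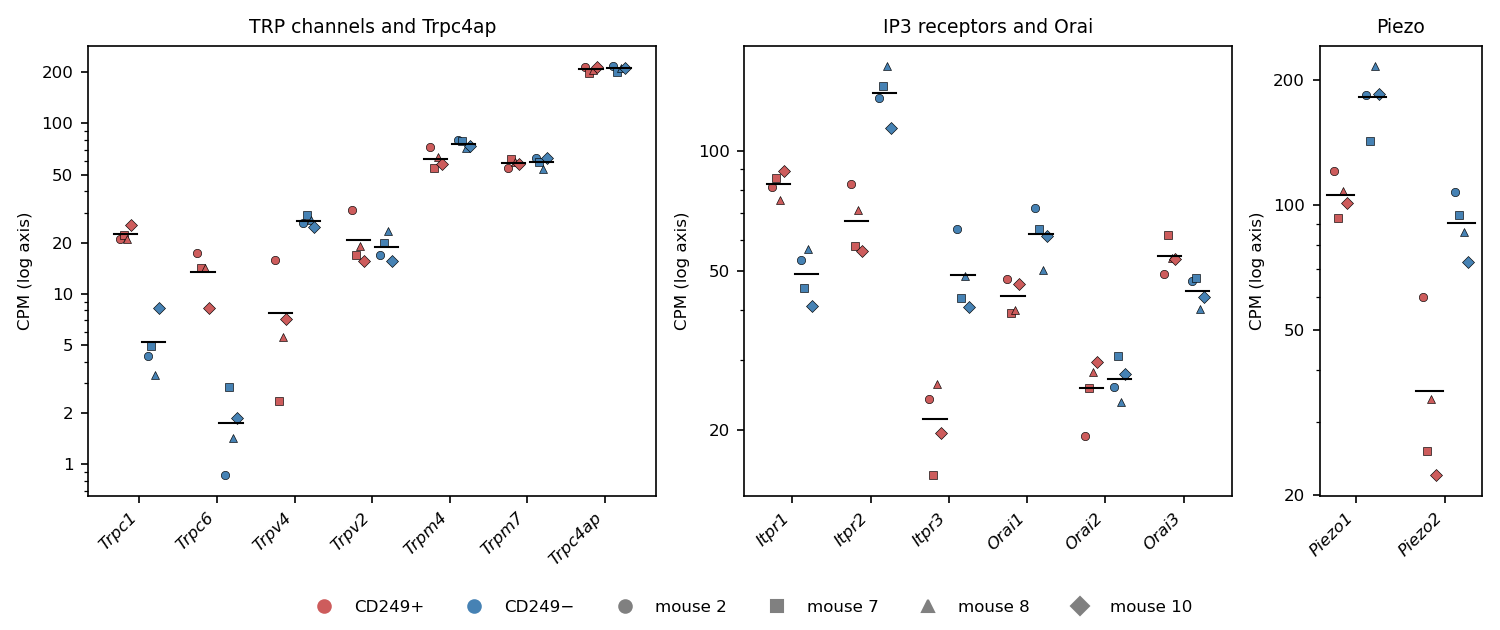
CPM on a log axis of TRP genes and Trpc4ap (left), IP3 receptor and Orai genes (centre) and Piezo genes (right) in each library, with CD249+ in red left of CD249- in blue, 1 marker shape per mouse and a black line at each group mean of 4 libraries. Trpc1, Trpc6 and Itpr1 are higher in red, Trpv4, Itpr2, Itpr3, Orai1 and both Piezo genes are lower in red, and Trpc4ap, Trpm7 and Orai2 overlap.

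Genes that handle calcium and sodium around these channels were read from 9 lists of 166 genes, none of them among the 73. Of 130 tested, 43 were higher and 25 lower in CD249+ cells and 62 did not pass, so that 52.3% were called against 36.5% of all genes tested, with a median log2 fold change of 0.11. Of the 8 partners of store-operated entry tested, 5 were higher and 2 lower, with a median of 0.65. The lower ones included Cracr2b, a calcium-binding regulator of Orai1 (log2 fold change -1.58, SE 0.13, adjusted p = 4.45e-05). Esyt2 and Esyt1, tethers between the endoplasmic reticulum and the surface membrane, were higher (0.79, SE 0.07, adjusted p = 6.11e-05, and 0.56, SE 0.07, adjusted p = 0.000327). The store sensors, named after their values were seen, split: Stim1 averaged 79.1 ± 8.10 CPM in CD249+ and 42.9 ± 9.68 CPM in CD249- cells (log2 fold change 0.90, adjusted p = 0.00223), and Stim2 averaged 68.1 ± 18.1 CPM in CD249+ and 132 ± 15.1 CPM in CD249- cells (-0.98, adjusted p = 0.000427).

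Of the 20 store pumps, buffers and junction proteins tested, 11 were higher and 3 lower in CD249+ cells (median log2 fold change 0.34). Asph, whose products include the junction protein junctin, averaged 111 ± 11.8 CPM in CD249+ and 32.4 ± 5.95 CPM in CD249- cells (1.79, SE 0.09, adjusted p = 4.04e-06). Rcn3, a calcium-binding protein of the secretory pathway, was higher (1.80, SE 0.13, adjusted p = 1.81e-05). Atp2a3, a pump that loads the store in blood and endothelial cells, averaged 413 ± 106 CPM in CD249+ and 1053 ± 110 CPM in CD249- cells (-1.38, SE 0.09, adjusted p = 1.40e-05). Of the 7 calcium extrusion genes tested, 4 were higher and 2 lower (median 1.07), among them the sodium-calcium-potassium exchangers Slc24a3 (2.62, SE 0.30, adjusted p = 0.000227) and Slc24a4 (-1.36, SE 0.18, adjusted p = 0.000503) and the surface pump Atp2b4 (1.99, SE 0.25, adjusted p = 0.000419). Slc24a3 and Slc24a4 thus moved in opposite directions, and the log2 fold change of Slc24a3 was 2.02 in mice 7 and 8 alone and 3.28 in mice 2 and 10 alone. Of the 9 calcium channel regulators tested, 5 were higher and 0 lower (median 1.03). The small GTPases Rem1, Gem and Rrad, which restrain calcium channels through the beta subunit, were among them (2.49, SE 0.20, adjusted p = 2.90e-05, then 1.03, SE 0.09, adjusted p = 4.13e-05, and 1.15, SE 0.21, adjusted p = 0.00311).

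Of the 22 sodium transport genes and sodium channel partners tested, 8 were higher and 4 lower (median 0.46). The sodium pump regulators Fxyd1 and Fxyd6 were higher (2.36, SE 0.12, adjusted p = 3.98e-06, and 2.12, SE 0.12, adjusted p = 5.88e-06). Of the 11 phospholipase C genes tested, 3 were higher and 4 lower (median -0.26), with Plcd1 higher (1.67, SE 0.15, adjusted p = 5.00e-05) and Plcb1 and Plcb2 lower (-1.34, SE 0.12, adjusted p = 5.09e-05, and -1.56, SE 0.15, adjusted p = 7.26e-05). Of the 11 mitochondrial calcium genes tested, 2 were higher and 2 lower (median 0.09), including the exchanger Slc8b1 (0.73, SE 0.09, adjusted p = 0.000293) and the outer membrane channel Vdac2 (-0.34, SE 0.07, adjusted p = 0.00498). Of the 23 genes of calmodulin, its kinases, calcineurin and NFAT tested, 3 were higher, 3 lower and 17 did not pass (median 0.06). The lower ones included the calcineurin subunit Ppp3ca (-0.54, SE 0.08, adjusted p = 0.000884) and the transcription factor Nfatc1 (-0.67, SE 0.10, adjusted p = 0.000905). Of the 19 other mechanosensitive and TRP-related channel genes tested, 2 were higher and 5 lower (median -0.20). Pkd2, a TRP-like channel of cilia and the endoplasmic reticulum, averaged 327 ± 12.6 CPM in CD249+ and 134 ± 8.72 CPM in CD249- cells (1.29, SE 0.07, adjusted p = 4.75e-06). Stom, a membrane protein that regulates ion channels, and Mcoln1, a lysosomal TRP-like channel, were lower (-0.88, SE 0.08, adjusted p = 5.45e-05, and -0.54, SE 0.08, adjusted p = 0.000784).

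**Figure D5:**
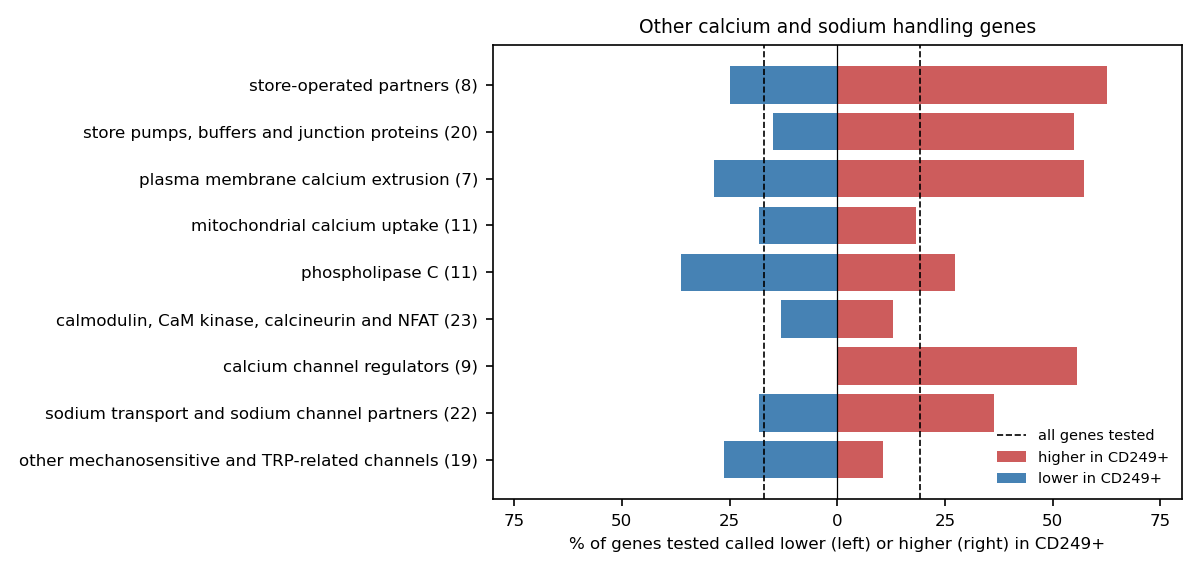
Percent of the genes tested in each of 9 lists that were called higher (red, right of 0) or lower (blue, left of 0) in CD249+ cells, with the number tested in brackets and dashed lines at the percentages for all genes tested, 19.3% higher and 17.1% lower. The calcium channel regulators have no lower gene, and the lists of phospholipase C and other mechanosensitive channels have more lower than higher genes.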

How the data were processed

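RNA of 8 sorted fractions (CD249+ and CD249- fibroblasts of 4 mice) was amplified with SMART-Seq V4 from 10 ng, per the labels' protocols. The authors deposited expected counts per gene, of which 12% of the values (5.82% for the channel genes) were not whole within 1e-06, so reads may be divided among similar genes. Tools in the submitters' processing notes, listed with no role, are R 3.6.3, RSEM 1.2.28, STAR 2.6.1, bcl2fastq 2.20 and DESeq2 1.26.0. The notes list GRCh38, a human build, for mouse genes, so the build of the counts is not given here. The 92 spike-in entries were 0 and left out.

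Counts were rounded, filtered with filterByExpr by group (which kept 14524 of 18572 genes with any count), scaled by TMM and tested in edgeR 4.0.16 (R 4.3.3), two-sided, with mouse and group as terms, and called at an adjusted p under 0.05. The mouse number names the lung both fractions came from, and deviations from the group means correlated at 0.132 to 0.285 across genes between libraries of 1 mouse, against -0.212 to 0.0515 between mice. Mice are separate animals. DESeq2 1.42.0, limma-voom (limma 3.58.1), other scalings, other filters and other sets of mice were tried as alternatives. Lengths and coordinates are from GENCODE M21 on GRCm38, in which all 73 channel genes were found, 45 with the same version. Counting error alone sets a level of 3 counts at 0.0940 to 0.130 CPM, and reads amplified without molecular identifiers are not independent molecules. Genes named in full are called channel genes averaging 2 CPM or more in the higher group, Piezo, Orai, Itpr and Ryr genes of at least 1 CPM, uncalled ones of at least 10 CPM, and the 3 called genes of smallest p per list. Others, and exceptions, were chosen after their values were seen. Values of some genes that the rule names are not reported here. The members and lists were chosen with earlier results of these data known.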

Additional observations from a re-analysis of the deposited data

Results flagged for a closer look

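Of 80 sets of 4 values checked (40 genes in 2 groups), 3 had a value that stood far from the others of its group by Dixon's test, and chance would mark about 1 in 20. Cacna1d had 39.2 CPM in the CD249+ library of mouse 8, against 53.0 to 54.8 CPM in the other CD249+ libraries. Ryr1 had 2.12 CPM in the CD249+ library of mouse 10, against 0.389 to 0.673 CPM in the other CD249+ libraries. That library of mouse 10 also had an epithelial marker sum of 10450 CPM, against 630 to 1216 CPM in the other CD249+ libraries, and its part in the Ryr1 value was not tested. Trpm5 had 0.14 CPM in the CD249- library of mouse 7, against 1.63 to 1.80 CPM in the other CD249- libraries.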

How the results depend on the processing

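All 26 called channel genes kept their sign in the 12 alternatives, and 18 of them (11 higher, 7 lower) were called in every one. Without the replicate block, 4468 genes were called, with 16 channel genes higher and 8 lower, and 37 list genes higher and 25 lower. That fit lost Orai3 and Trpm4, and it changed no other call of a channel gene. DESeq2 called 6045 genes and kept all 26. Without TMM scaling the median of all genes was -0.12. In mice 2 and 10 alone 3114 genes were called, 1786 higher and 1328 lower, with fewer samples. With 1 mouse left out, 14 to 16 channel genes were higher and 8 lower, and 4152 to 4712 genes were called. Some uncalled values changed sign, and the cause was not tested. With 1 mouse left out they ran from -1.47 to 0.09 (Trpm5), -0.16 to 0.21 (Trpv2), -0.20 to 2.77 (Cacna1h), -0.08 to 0.05 (Trpm7), -0.26 to 0.04 (Cacna1a), -0.03 to 0.01 (Trpc4ap), -0.19 to 0.05 (Orai2) and -0.73 to 0.14 (Trpc2). In mice 7 and 8 alone they were 1.34 (Trpm5), -0.24 (Trpv2), 0.13 (Trpm7), 0.23 (Cacna1a) and 0.02 (Orai2), in mice 2 and 10 alone 0.53 (Cacna1i), -1.34 (Cacna1h) and 0.15 (Trpc2), and without TMM -0.01 (Trpv2). In mice 7 and 8 alone Cacnb1, Orai1, Orai3, Ryr3, Trpm3 and Trpm4 lost their call, and in mice 2 and 10 alone Cacnb1, Orai3, Ryr3 and Trpm4 were among those that did. Ryr3 and Trpm3 were not tested with at least 1 CPM in 4 libraries.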

Other observations

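Some channel genes below the count filter had counts mainly in CD249+ libraries, and all were picked after their values were seen. Trpm6, a magnesium channel of kidney and gut, had 0.329, 0, 0.602 and 5.14 CPM in CD249+ libraries and 0 in all CD249- libraries. Its highest value was in the CD249+ library of mouse 10, which had the highest epithelial marker sum, 10450 CPM, and the part of epithelial RNA in it was not tested. Trpv1, the capsaicin receptor, had 0.231, 0.814, 0.283 and 1.06 CPM in CD249+ libraries, against 0, 0, 0 and 0.15 CPM in CD249- libraries. Scn11a, known from pain-sensing neurons, had 0 in all CD249+ libraries, against 0, 1.09, 0 and 0.510 CPM in CD249- libraries. Trpm6 was called without the count filter and in mice 2 and 10 alone. All its counts lay in CD249+ libraries, so it was tested there only through the group where it is high. Those calls are a description and no support for a difference.

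The other cell type markers gave these sums. Adventitial fibroblast markers summed to 5079 to 8892 CPM in CD249+ and 5904 to 8244 CPM in CD249- libraries, with 5 higher and 3 lower of 12 tested. Leukocyte markers summed to 1093 to 3365 CPM in CD249+ and 1312 to 2431 CPM in CD249- libraries, with 0 higher and 4 lower of 12. Platelet and red cell markers summed to 31.3 to 261 CPM in CD249+ and 125 to 911 CPM in CD249- libraries, with 8 lower of 10. Mesothelial markers summed to 96.3 to 119 CPM in CD249+ and 89.2 to 237 CPM in CD249- libraries, with 1 higher and 5 lower of 7. Epithelial markers summed to 630 to 10450 CPM in CD249+ and 382 to 1053 CPM in CD249- libraries, with 5 higher and 1 lower of 11.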
